A study of Mus musculus with 8 samples.

Results

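Cdkn1a and the genes described with it are 10 of the 33027 genes measured in single lung cells of mice that breathed cigarette smoke (CS) or room air (RA). They were chosen by name because Cdkn1a and Gadd45b were lower in general capillary (gCap) endothelial cells of CS mice. The values of these genes in gCap cells are therefore given as a description, with no test. The other genes are Mdm2, Ccng1, Btg2, Phlda3, Trp53inp1, Gadd45a, Gadd45g and Cdkn2a. The CS group held 4 mice (C2, C5, D2 and D5) and the RA group 4 mice (F1, F3, M1 and M3), all of the Sftpc-CreERT2-mTmG line on a C57BL/6 background. In this line, tamoxifen makes the Cre of cells that express the surfactant gene Sftpc active, so that these cells switch from a red to a green membrane reporter. Both groups had tamoxifen on 4 days at 8 to 10 weeks of age, and exposure began 2 weeks later and lasted 10 months, with smoke for 6 h a day on 5 days a week. Lung suspensions were separated by CD45 and mixed to 10% CD45+ and 90% CD45- cells before barcoding, so that shares of cell types in the lung were not measured.

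The product of Cdkn1a, p21, inhibits cyclin-dependent kinases and holds cells in G1, and p53 is its best known activator. Mdm2 is the ubiquitin ligase that marks p53 for degradation and is itself a p53 target, which closes a feedback loop. Ccng1 encodes cyclin G1, Btg2 an antiproliferative cofactor of RNA deadenylation, Phlda3 a repressor of Akt and Trp53inp1 a p53-inducible nuclear protein. The 3 Gadd45 genes encode small stress proteins that bind the kinase upstream of p38. Cdkn2a encodes the p16 and Arf proteins that build up in senescent cells. Several of these genes, among them Cdkn1a, Btg2 and Gadd45b, are also induced within minutes to hours by growth factors and stress, as are the immediate-early genes Fos, Jun and Atf3.

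The promoters are shown first because the question of which of these genes move together comes back in each cell type. The sequences are from RefSeq (GRCm38.p6), which held 11 starts for 9 of the genes, and each is the 250 bases before a transcript start, 5′ to 3′. The capitals mark matches to the p53 decamer (the 10-base unit that occurs as a pair in a full p53 site), a CRE, an E-box, a GC box or a TATA box. Cdkn1a start 1 lies at chr17:29090729-29090978 on the plus strand, and Mdm2 at chr10:117710759-117711008 on the minus strand. Btg2 lies at chr1:134079156-134079405 on the minus strand and Gadd45b at chr10:80929841-80930090 on the plus strand.
Cdkn1a start 1: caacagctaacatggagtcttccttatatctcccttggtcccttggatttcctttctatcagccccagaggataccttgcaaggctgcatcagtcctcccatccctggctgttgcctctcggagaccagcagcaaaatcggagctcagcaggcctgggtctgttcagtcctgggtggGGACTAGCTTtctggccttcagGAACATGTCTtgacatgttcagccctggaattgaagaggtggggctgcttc
Mdm2: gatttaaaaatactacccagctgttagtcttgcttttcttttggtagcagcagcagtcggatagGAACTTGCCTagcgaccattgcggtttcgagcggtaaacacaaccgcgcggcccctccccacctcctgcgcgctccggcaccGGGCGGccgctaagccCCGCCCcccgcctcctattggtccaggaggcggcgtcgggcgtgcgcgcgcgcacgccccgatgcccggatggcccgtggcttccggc
Btg2: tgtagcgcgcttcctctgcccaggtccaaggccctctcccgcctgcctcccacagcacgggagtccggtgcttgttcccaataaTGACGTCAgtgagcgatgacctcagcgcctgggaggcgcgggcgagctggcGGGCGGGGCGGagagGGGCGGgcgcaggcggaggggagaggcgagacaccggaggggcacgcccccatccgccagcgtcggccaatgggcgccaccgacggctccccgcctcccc
Gadd45b: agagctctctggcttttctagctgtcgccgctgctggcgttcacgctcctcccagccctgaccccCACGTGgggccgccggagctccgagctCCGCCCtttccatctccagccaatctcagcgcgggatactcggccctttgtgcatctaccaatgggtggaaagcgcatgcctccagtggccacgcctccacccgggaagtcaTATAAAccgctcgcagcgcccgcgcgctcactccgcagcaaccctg

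Cdkn1a start 1 held 2 matches to the p53 decamer, from 73 to 64 and from 51 to 42 bases before the start. The 2 are not adjacent to each other, and the search allowed no mismatch. The bases directly after the second match, tgacatgttc, differ from the decamer only at their first letter, so that a pair with a mismatch went uncounted. Cdkn1a start 2 held 2 GC boxes and no decamer match. Mdm2 held 1 such match (186 to 177 bases before the start), as did Ccng1 (185 to 176) and Gadd45a (40 to 31). Over all 32851 promoters of the same length, 7.13% held the decamer on either strand. Btg2 held no decamer match in this window but a full CRE (TGACGTCA, 166 to 159 bases before the start), which occurred in 1.55% of all promoters. Gadd45b and Gadd45g each held an E-box (CACGTG, 6.02% of promoters) and a TATA box (TATAAA, 12.4%). The GC box (GGGCGG) was found in 32.7% of promoters and the AP-1 site (TGACTCA) in 4.46%, and the AP-1 site and the CArG box (1.47%) were in none of the 11 windows. GC boxes that overlap, as in Btg2, were counted separately. A match is a match of letters and was not tested as a binding site, and 250 bases leave out more distant elements.

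**Figure D1:**
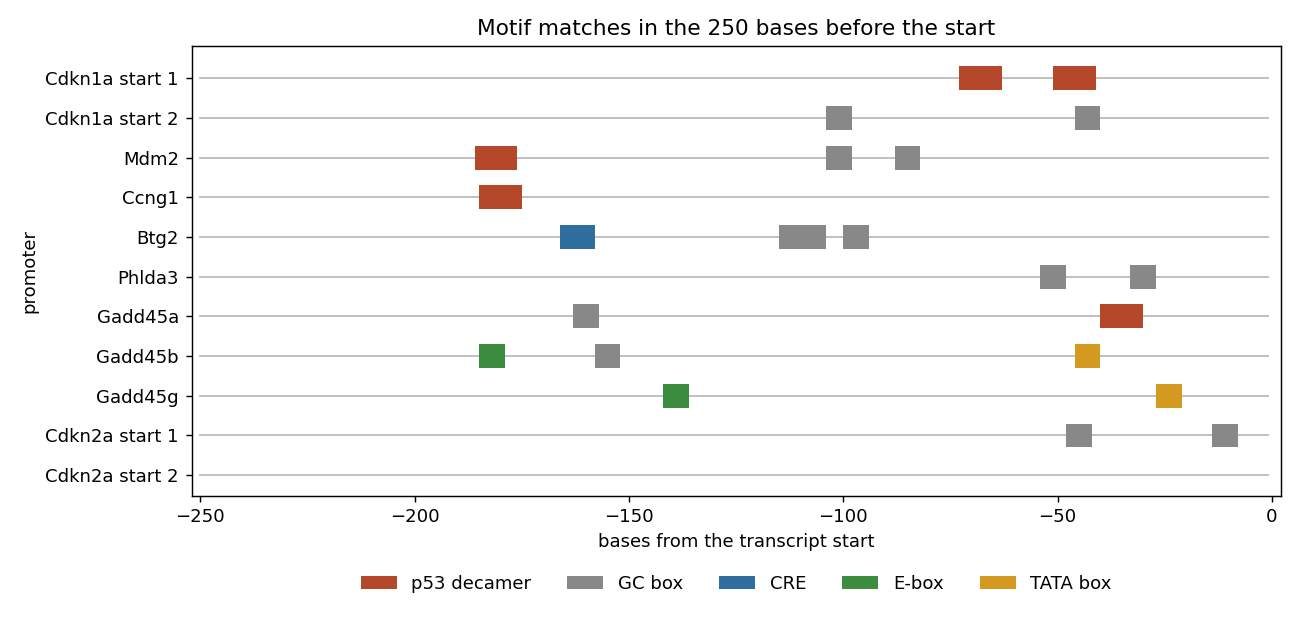
Motif matches in the 250 bases before each RefSeq start (x axis, bases from the start), 1 line per promoter with boxes coloured by motif. Decamer matches stand at Cdkn1a start 1, Mdm2, Ccng1 and Gadd45a, and the only CRE at Btg2.

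The matrix held 41106 cells, of which 40074 in 32 annotated types were used after multiplets and cell cycle cells were left out. Total unique molecular identifiers (UMIs) per mouse ran from 31882952 to 55485617. The value of a mouse is the mean over its cells of a type of transcripts per 10,000, and 22 types had at least 20 cells in at least 2 mice of each group. All 5 gCap markers looked up (Gpihbp1, Plvap, Kit, Cd93 and Aplnr) were highest in gCap cells, and over the endothelial and epithelial types 35 of 40 markers were highest in their own type. Of the 3 club markers 1 was, as Scgb3a2 was highest in goblet and Cyp2f2 in basal cells. The sex labels of the CS libraries did not match their transcripts. Both CS libraries labelled male, C2 and C5, held Xist at 7.83 and 8.34 transcripts per 10,000, and those labelled female, D2 and D5, held the Y-linked Ddx3y at 0.925 and 1.08. The RA libraries matched their labels, and the calls, the gCap differences, the counts of signs and the counts of listed genes called were also computed without each mouse in turn. Across libraries, 197 barcodes occurred more than once, in 394 cells.

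In gCap cells, the mean of Cdkn1a was 0.326 times as high in CS as in RA mice. It reached 2.76, 3.78, 2.81 and 2.7 transcripts per 10,000 in CS mice C2, C5, D2 and D5. In RA mice F1, F3, M1 and M3 it reached 16.9, 9.21, 5.86 and 4.97. Each CS mouse lay below each RA mouse, and F1 was the highest of all. Both RA females, F1 and F3, lay above both RA males, M1 and M3. The means were 3.01 ± 0.513 in CS (SD, n = 4) and 9.23 ± 5.42 in RA (SD, n = 4), and the log2 difference was -1.22 (standard error 0.291). Without F1 it was -0.91. With every cell thinned to 2000 UMIs, Cdkn1a was detected in 31.2% ± 4.21 of the gCap cells of CS mice against 63.2% ± 18.1 of those of RA mice (SD over 4 mice each), and in 42.8% and 77.0% without thinning. Thinning left out 387 of 4812 CS and 509 of 5176 RA cells with fewer UMIs. The median gCap cell had 3482 to 4925 UMIs in CS libraries and 3024 to 5226 in RA libraries. No cell type was taken as lacking Cdkn1a, and B cells, where its mean over both groups was lowest, gave a thinned share of 6.36% in CS and 5.14% in RA mice.

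Btg2, the antiproliferative gene, had the same order of groups in gCap cells. Its values were 5.95, 5.42, 5.51 and 3.80 in C2, C5, D2 and D5, and 12.8, 10.9, 6.71 and 6.97 in F1, F3, M1 and M3. Again no CS mouse reached an RA mouse. The means were 5.17 ± 0.943 and 9.34 ± 2.99 (SD, n = 4), -0.71 apart on the log2 scale (standard error 0.202).

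Gadd45b was 0.945, 1.47, 1.0 and 0.900 in C2, C5, D2 and D5, and 2.26, 2.07, 1.71 and 1.26 in F1, F3, M1 and M3. Here the groups overlapped, since CS mouse C5 was above RA mouse M3. The means were 1.08 ± 0.265 in CS and 1.82 ± 0.440 in RA (SD, n = 4), and the log2 difference was -0.44 (standard error 0.120). Libraries were sequenced in 4 lanes with 1 CS and 1 RA mouse each, and within them the Gadd45b difference was -0.75, -0.62, -0.13 and -0.25 on the log2 scale. So the CS mouse was lower in all 4 lanes, by less in lanes 3 and 4. Lanes 1 and 2 held the RA females and lanes 3 and 4 the RA males. Sex and lane thus cannot be told apart in RA mice. In gCap cells Cdkn1a, Btg2 and Gadd45b were each higher in both RA females than in both RA males. Gadd45g, the third gene of the family, had means of 0.725 ± 0.130 in CS and 1.25 ± 0.406 in RA, with a log2 difference of -0.37 (standard error 0.114) and overlapping groups.

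The remaining genes were close between the groups in gCap cells. The mean of Mdm2 was 0.880 ± 0.0979 in CS and 0.934 ± 0.203 in RA (SD, n = 4), and that of Phlda3 0.640 ± 0.182 and 0.749 ± 0.236. Trp53inp1 lay on the other side, at 0.481 ± 0.10 in CS and 0.399 ± 0.0236 in RA. For these 3 genes the log2 difference lay between -0.09 and 0.08. Without each mouse in turn it lay between -0.15 and 0.12, and without F1 that of Mdm2 turned to 0.03. Ccng1 (0.191 in CS, 0.153 in RA), Gadd45a (0.186 and 0.223) and Cdkn2a (0.0305 and 0.0384) were found in under 10% of gCap cells in both groups and entered no fit. The 4 genes with the largest differences were Cdkn1a, Btg2, Gadd45b and Gadd45g, of which Cdkn1a and Gadd45b had been chosen for being lower here. Over all 6712 genes tested in gCap cells 10.8% were called at an adjusted p under 0.05, and nothing is read from that share for genes chosen in this comparison. By limma 35% of them had an unadjusted p under 0.05. The share of gCap genes whose groups do not overlap is not given here. The lack of overlap of Cdkn1a and Btg2 is therefore not read as particular to these genes.

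**Figure D2:**
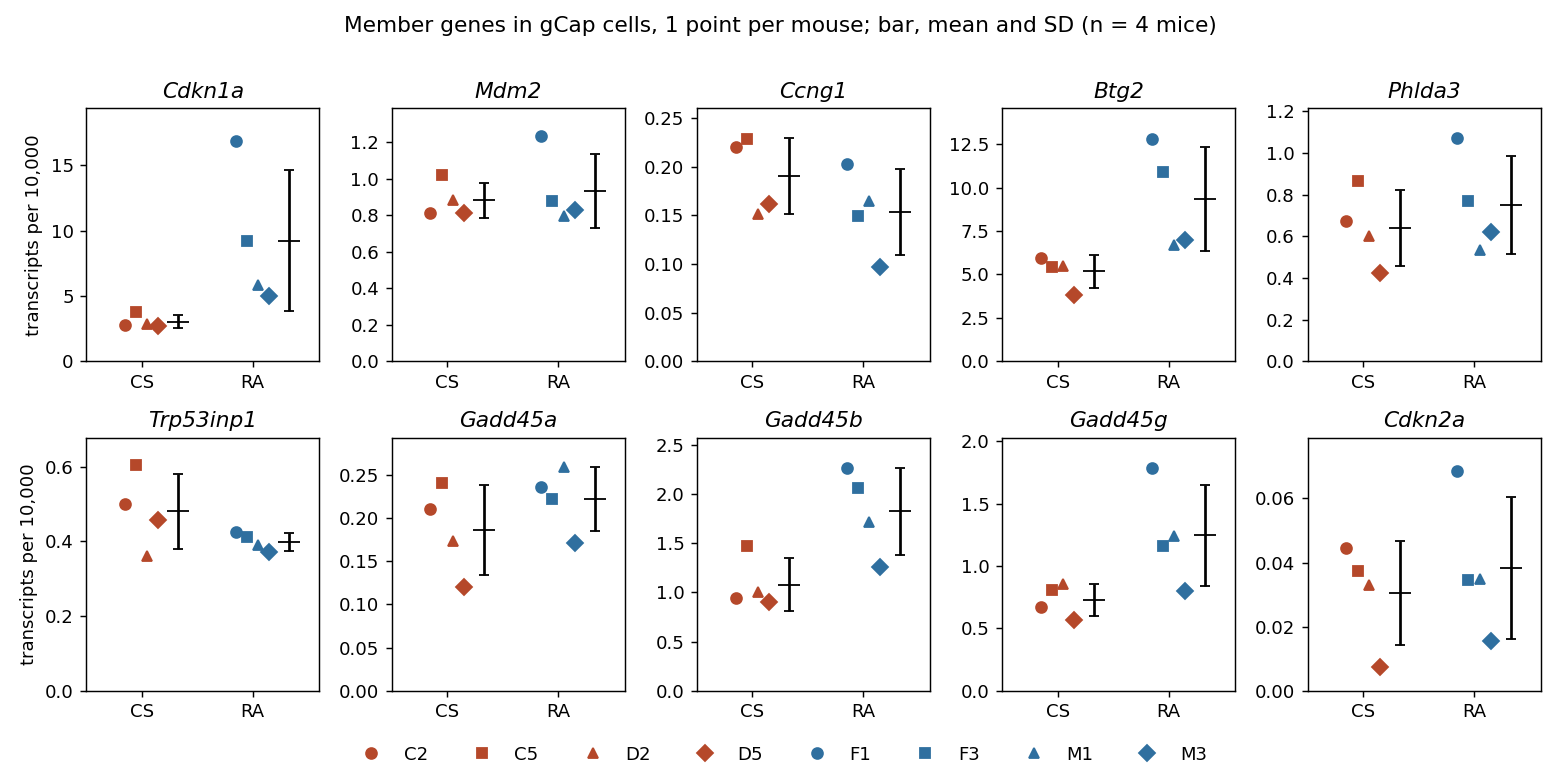
Transcripts per 10,000 (y axis, from 0) of the 10 genes in gCap cells, 1 point per mouse with the mean and SD of each group (n = 4). The CS and RA points of Cdkn1a and Btg2 do not overlap, whereas those of Mdm2 (means 0.880 and 0.934) lie together.

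Outside gCap cells, the smoke comparison of these genes was tested in 21 cell types. Of 210 gene and cell type pairs, 174 passed the filter (found in at least 10% of cells in CS or in RA mice), and 4 were called at an adjusted p under 0.05 after adjustment over all genes of the type. Of these, 3 were lower in CS mice, namely Btg2 in alveolar type 1 (AT1) cells, Btg2 in ciliated cells and Cdkn1a in arterial endothelium. Cdkn1a in goblet cells was the 1 pair that was higher. Over all genes and the same types, 0.889% of 166820 pairs were called, 0.388% as lower and 0.501% as higher. At an unadjusted p under 0.05 there were 35 of the 174 pairs, against 14.4% of all pairs. With the lane as a block, 1 pair was called lower and 1 higher. The count of lower pairs also fell to 1 without C2, D2, D5, F1 or F3. That of higher pairs fell to 0 without any 1 of C2, C5, D2, D5, M1 or M3 and was 2 without F1.

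Btg2 fell in AT1 cells, the flat cells of gas exchange. Its values were 1.04, 1.61, 2.22 and 2.06 transcripts per 10,000 in CS mice C2, C5, D2 and D5. In RA mice F1, F3, M1 and M3 they were 5.73, 4.02, 4.45 and 4.22. No CS mouse came near the RA mice. The means were 1.73 ± 0.529 and 4.60 ± 0.773 (SD, n = 4), a ratio of 0.377, and the log2 difference was -1.05 (standard error 0.134, adjusted p = 0.000659). Of all genes tested in AT1 cells 2.38% were called. The Btg2 call passed the threshold under all 18 alternatives run, with adjusted p from 0.000327 to 0.0433. The lower cell minimum, 1 of these, could not change it, as each mouse had at least 50 AT1 cells. Thinned to 2000 UMIs, Btg2 was found in 31.0% ± 9.21 of AT1 cells of CS and 55.8% ± 3.94 of AT1 cells of RA mice. The summed level of the 3 AT1 markers in these cells was 228 to 270 in CS mice and 271 to 313 in RA mice, and that of the 3 club markers 9.92 to 73.6 and 0.0341 to 49.7, and their part in the result was not tested. In alveolar type 2 (AT2) cells, the other epithelium of the alveolus, the log2 difference of Btg2 was -0.14. No gene was called by limma there, and 670 of 9138 had an unadjusted p under 0.05. These 2 types were compared after the call in AT1 cells was seen. The difference in AT1 less that in AT2 cells of the same mice was -0.90 (standard error 0.123, adjusted p = 0.00727), where 0.976% of 7887 genes were called. It passed without each mouse in turn, with adjusted p from 0.00552 to 0.0274.

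Btg2 also fell in ciliated cells. It was 2.73, 5.75, 3.63 and 3.37 in C2, C5, D2 and D5, and 8.24, 6.62, 6.17 and 6.96 in F1, F3, M1 and M3. The groups did not overlap, though C5 lay just under M1. The log2 difference was -0.74 (standard error 0.159, adjusted p = 0.0287), in a type in which 4.66% of all genes were called. It was not called with the lane as a block (adjusted p = 0.0763), with no trend in limma (0.0575) or with no filter on genes (0.127), and leaving out any 1 of C2, D2, D5, F1, F3 or M3 also ended the call. In ciliated cells the summed proliferation genes were 0.126 to 0.155 in CS mice and 0.163 to 0.185 in RA mice, the 3 alveolar macrophage markers 0.0306 to 0.0430 and 0.0435 to 0.118, and the 3 pericyte markers 0.00474 to 0.00929 and 0.0119 to 0.0214. These sums did not overlap between the groups, and their part in the result was not tested. Against club cells of the same mice, the difference of ciliated cells was -0.56 (standard error 0.132, adjusted p = 0.113).

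Cdkn1a fell in arterial endothelium. Its values were 2.26, 3.46, 2.50 and 2.80 in C2, C5, D2 and D5, and 9.48, 6.12, 4.46 and 4.15 in F1, F3, M1 and M3. F1 was again the highest, both RA females again lay above both RA males, and no CS mouse reached an RA mouse. The means were 2.76 ± 0.520 and 6.05 ± 2.44 (SD, n = 4). The log2 difference was -0.86 (standard error 0.190, adjusted p = 0.0484), in a type in which 0.661% of all genes were called. The adjusted p was 0.0919 with the lane as a block, 0.0523 in cells of at most 5% mitochondrial reads, 0.0611 with no trend and between 0.0291 and 0.366 over the 18 alternatives. It passed no longer without any 1 of the 4 CS mice or without F1 (0.0563) or F3 (0.0929). The 5 gCap markers in arterial cells summed to 16 to 18.5 in CS mice and 19.9 to 25.8 in RA mice, without overlap, with 3 of 5 lower in CS. The summed club markers there were 2.16 to 108 in CS mice and 0.413 to 8.16 in RA mice, and their part in the result was not tested. In venous endothelium, Cdkn1a was 2.76, 5.45, 5.25 and 5.44 in the CS mice and 19.2, 10.2, 6.91 and 6.55 in the RA mice, again without overlap, with a log2 difference of -0.95 and an adjusted p of 0.179. The gCap markers in venous cells summed to 20.6 to 21.8 in CS mice and 22.2 to 28.3 in RA mice, also without overlap. The arterial and venous differences were not told apart, at 0.09 (standard error 0.139, adjusted p = 0.958).

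In goblet cells, the mucus-producing cells of the airway, Cdkn1a had the opposite sign and rose. It was 0.642, 1.05, 0.834 and 0.607 in C2, C5, D2 and D5, against 0.0269, 0.25, 0.311 and 0.285 in F1, F3, M1 and M3. Each CS mouse lay above each RA mouse, and F1, the highest RA mouse in the endothelium, was the lowest here. The means were 0.782 ± 0.202 and 0.218 ± 0.130 (SD, n = 4), and the log2 difference was 0.55 (standard error 0.0933, adjusted p = 0.0335), in a type in which 0.176% of all genes were called. Thinned to 2000 UMIs, Cdkn1a was found in 17.1% ± 5.03 of goblet cells of CS and 3.86% ± 2.06 of goblet cells of RA mice, and without thinning in 62.9% and 32.6%. The median goblet cell had 31209 to 40617 UMIs in CS libraries and 25921 to 64068 in RA libraries, with 23 to 137 cells per mouse. The adjusted p was between 0.0167 and 0.341 over the alternatives, and the call was lost under 6 of 10 changes of method and without any 1 of 6 mice. The 3 basal markers summed to 0.871 to 3.13 in CS and 0.0335 to 1.31 in RA goblet cells, and the 4 arterial markers to 0.772 to 1.09 and 0.133 to 0.417, and their part in the result was not tested. Against club cells of the same mice the difference was 0.48 (adjusted p = 0.752), and the arterial less the goblet difference was -1.41 (standard error 0.242, adjusted p = 0.0847), so that the opposite signs did not pass a test of their own.

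**Figure D3:**
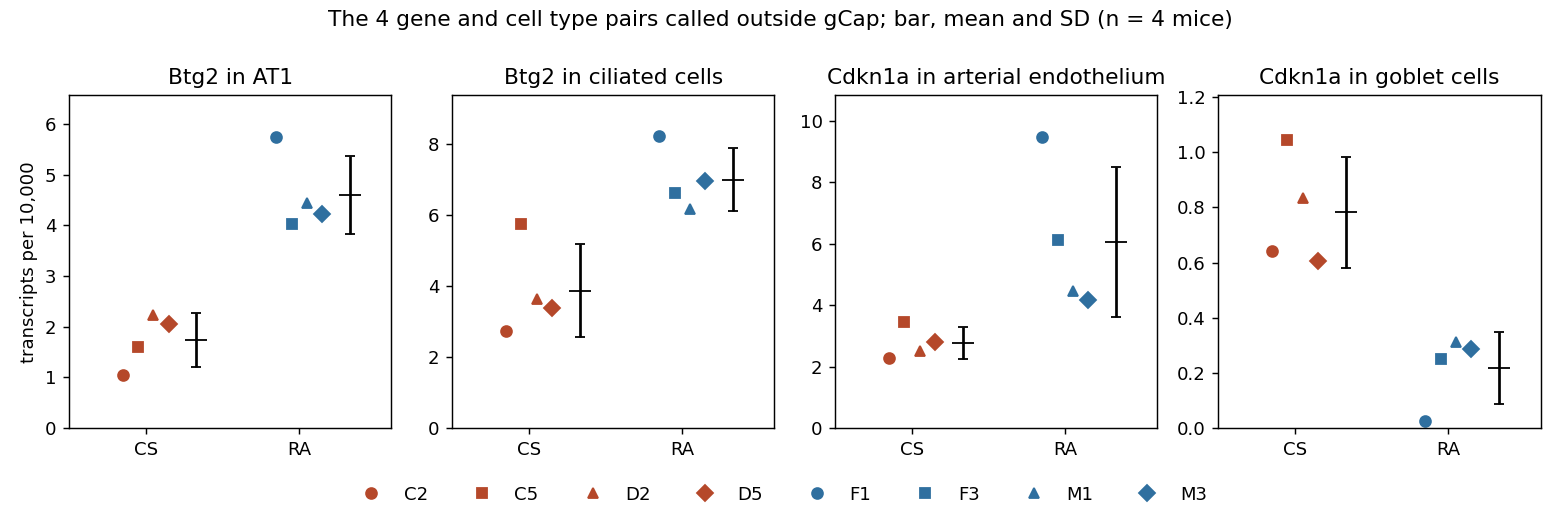
Transcripts per 10,000 (y axis, from 0) in the 4 gene and cell type pairs called outside gCap cells, 1 point per mouse with the mean and SD of each group (n = 4). CS points lie below RA points for Btg2 and for Cdkn1a in arterial endothelium, and above them for Cdkn1a in goblet cells (means 0.782 and 0.218).

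Most of the uncalled pairs of Btg2, Gadd45b and Cdkn1a also had a difference below 0. The Btg2 difference was below 0 in 20 of 21 types outside gCap, with a median of -0.21. That of Gadd45b was below 0 in 19 of 21 types, with a median of -0.24, a lowest value of -0.57 in non-classical monocytes (without F1, which had too few of these cells) and a highest of 0.03. That of Cdkn1a was below 0 in 16 of 21, with a median of -0.19. Of the 1668 genes tested in all 21 types, 4.2% were below 0 in at least 20 types, 8.03% in at least 19 and 22.7% in at least 16. Without F1 the median was -0.08 for Cdkn1a and -0.11 for Gadd45b, and without C2 it was -0.16 for Gadd45b. With summed transcripts or median-ratio scaling, Btg2 and Gadd45b were below 0 in 21 types and Cdkn1a in 16. The counts also fell, to 17 for Btg2 without M3 and 18 without D2. They fell to 17 for Gadd45b without F1 and to 14 for Cdkn1a without C2. With the lane as a block, Btg2 was below 0 in 19 types. These types come from the same 8 mice, so that the counts are not independent. For Gadd45b no type was called, with a smallest adjusted p of 0.285 and 5 types at an unadjusted p under 0.05, all lower.

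For Mdm2, Ccng1, Trp53inp1 and Gadd45a the differences were spread over both signs. The Mdm2 difference was below 0 in 10 of 21 types (9 with summed transcripts and 11 with median-ratio scaling), Ccng1 in 9 of 19, Trp53inp1 in 8 of 19 and Gadd45a in 8 of 20, each with a median between 0.01 and 0.04. Phlda3 was below 0 in 9 of 14 types and Gadd45g in 13 of 17. None of these genes was called in any type, and the number of types at an unadjusted p under 0.05 was 1 for Mdm2, 2 for Ccng1, 4 for Phlda3, 4 for Trp53inp1, 2 for Gadd45a and 5 for Gadd45g. The smallest adjusted p was that of Ccng1 in aerocytes, the second capillary type, at 0.0638. There Ccng1 was 0.490, 0.736, 0.410 and 0.427 in C2, C5, D2 and D5 and 0.295, 0.306, 0.293 and 0.232 in F1, F3, M1 and M3, so that each CS mouse was above each RA mouse (log2 difference 0.24, standard error 0.0596).

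Groups did not overlap in 14 tested pairs with CS lower and 6 with CS higher, where over all genes and types these shares were 4.41% and 5.68%. The lower ones were 6 of Btg2, 4 of Cdkn1a, 3 of Gadd45g and 1 of Trp53inp1. For Btg2 they were AT1, ciliated, lymphatic and T cells and the alveolar and peribronchial fibroblasts. In alveolar fibroblasts Btg2 ran from 13.1 to 14.4 in CS and from 16.7 to 18.0 in RA mice, a narrow but clean split (log2 difference -0.29, adjusted p = 0.154). For Gadd45g they included AT2 cells, with 1.32 to 1.82 in CS and 1.96 to 2.30 in RA mice (log2 difference -0.32, adjusted p = 0.476). Mdm2 in AT2 cells was among the higher ones, at 0.366 to 0.470 in CS and 0.305 to 0.356 in RA mice, a log2 difference of 0.09 (adjusted p = 0.674).

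**Figure D4:**
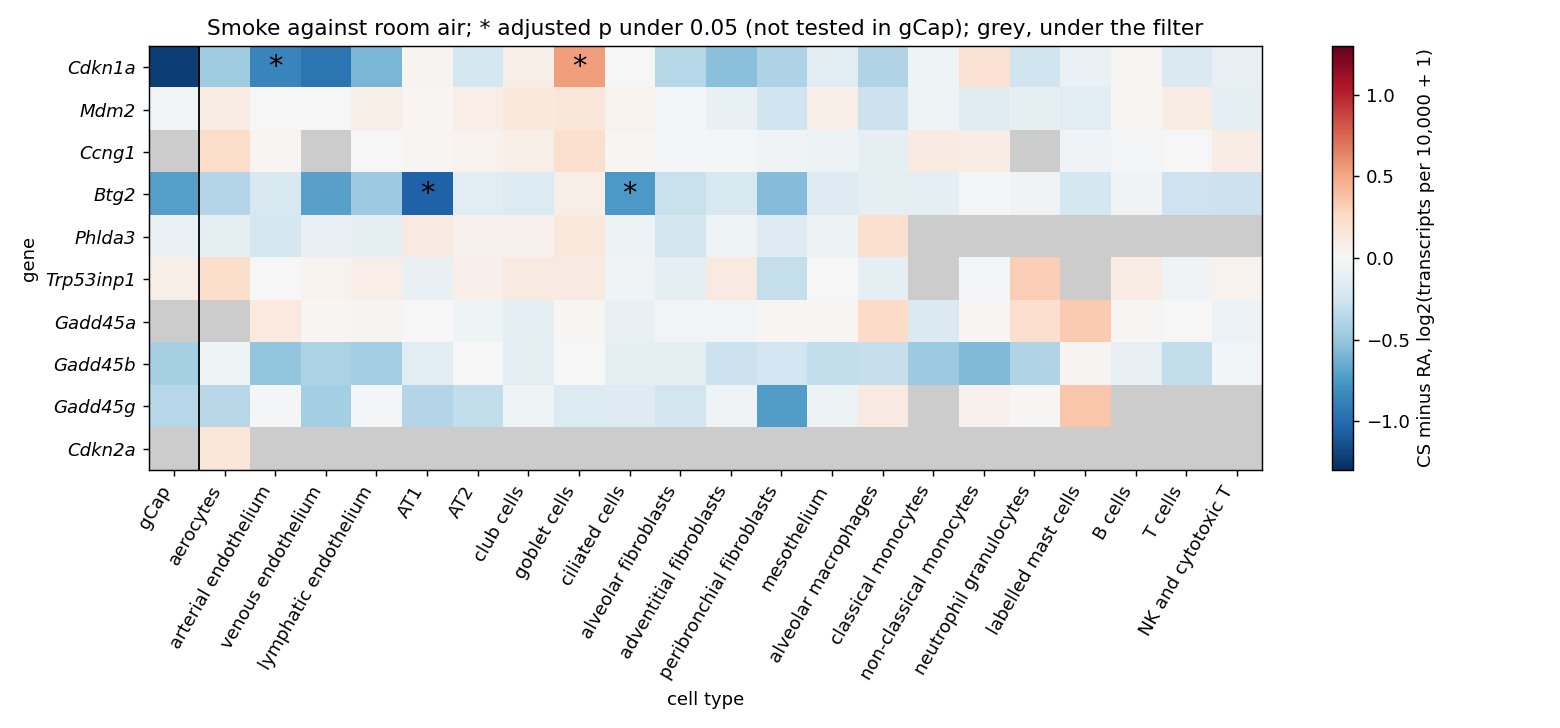
Log2 difference of CS and RA means for each gene (rows) and cell type (columns), blue where CS is lower and red where it is higher, with asterisks at an adjusted p under 0.05 and grey where the filter was not passed. The Btg2 and Gadd45b rows are blue in 20 and 19 of the 21 types outside gCap, and the asterisks stand at the 4 pairs described.

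Each gene had its own order of cell types. Cdkn1a was highest in aerocytes, at 11.8 ± 5.01 transcripts per 10,000 (SD, n = 8 mice of both groups), then in venous endothelium at 7.72 ± 5.09 and gCap cells at 6.12 ± 4.87. By the means of each group, gCap cells ranked 3 among the 22 types in RA mice and 8 in CS mice, and aerocytes ranked 1 in both. Over both groups, Cdkn1a was lowest in B cells, at 0.343 ± 0.101, next to club cells at 0.392 ± 0.147, while in RA mice alone goblet cells (0.218) lay below B cells (0.339). Only the steps from AT2 cells (2.05) to ciliated cells (1.37) and from T cells (1.2) to goblet cells (0.50) were larger than the SD of both neighbours. Btg2 was highest in peribronchial fibroblasts, at 26.5 ± 6.18 (n = 6), well above the cells labelled mast cells at 16.3 ± 2.92 (n = 7), and lowest in alveolar macrophages at 1.87 ± 0.470 over both groups, while the lowest mean of CS mice was that of aerocytes (1.70) and the lowest of RA mice that of goblet cells (1.87). Gadd45b was highest in neutrophil granulocytes, at 28.8 ± 7.65, followed by peribronchial fibroblasts at 15.6 ± 2.53 and alveolar fibroblasts at 9.81 ± 1.88, and lowest in ciliated cells at 0.473 ± 0.167. The first of these steps, from 28.8 to 15.6, exceeded the SD of both types, as did the step to alveolar fibroblasts.

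Among the other genes, Mdm2 was highest in classical monocytes (3.08 ± 1.28, SD over 8 mice) and ciliated cells (2.69 ± 0.164), Ccng1 in mesothelium (1.13 ± 0.120) and Trp53inp1 in ciliated cells (1.61 ± 0.246). Phlda3, like Cdkn1a, led in aerocytes, at 4.79 ± 1.15, followed over both groups by mesothelium at 1.15. In RA mice alone, alveolar fibroblasts (1.28) came before mesothelium (1.19). Gadd45a, like Gadd45b, was highest in neutrophil granulocytes (2.88 ± 0.664), and Gadd45g, like Btg2, in peribronchial fibroblasts (2.92 ± 1.37). Cdkn2a passed the filter in 1 type, aerocytes, with 0.418 ± 0.214, where its log2 difference was 0.16 (adjusted p = 0.377). The gene intervals of Cdkn1a and Gadd45a overlap an annotated gene on the other strand (AC167363.2 and E230016M11Rik in GENCODE).

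**Figure D5:**
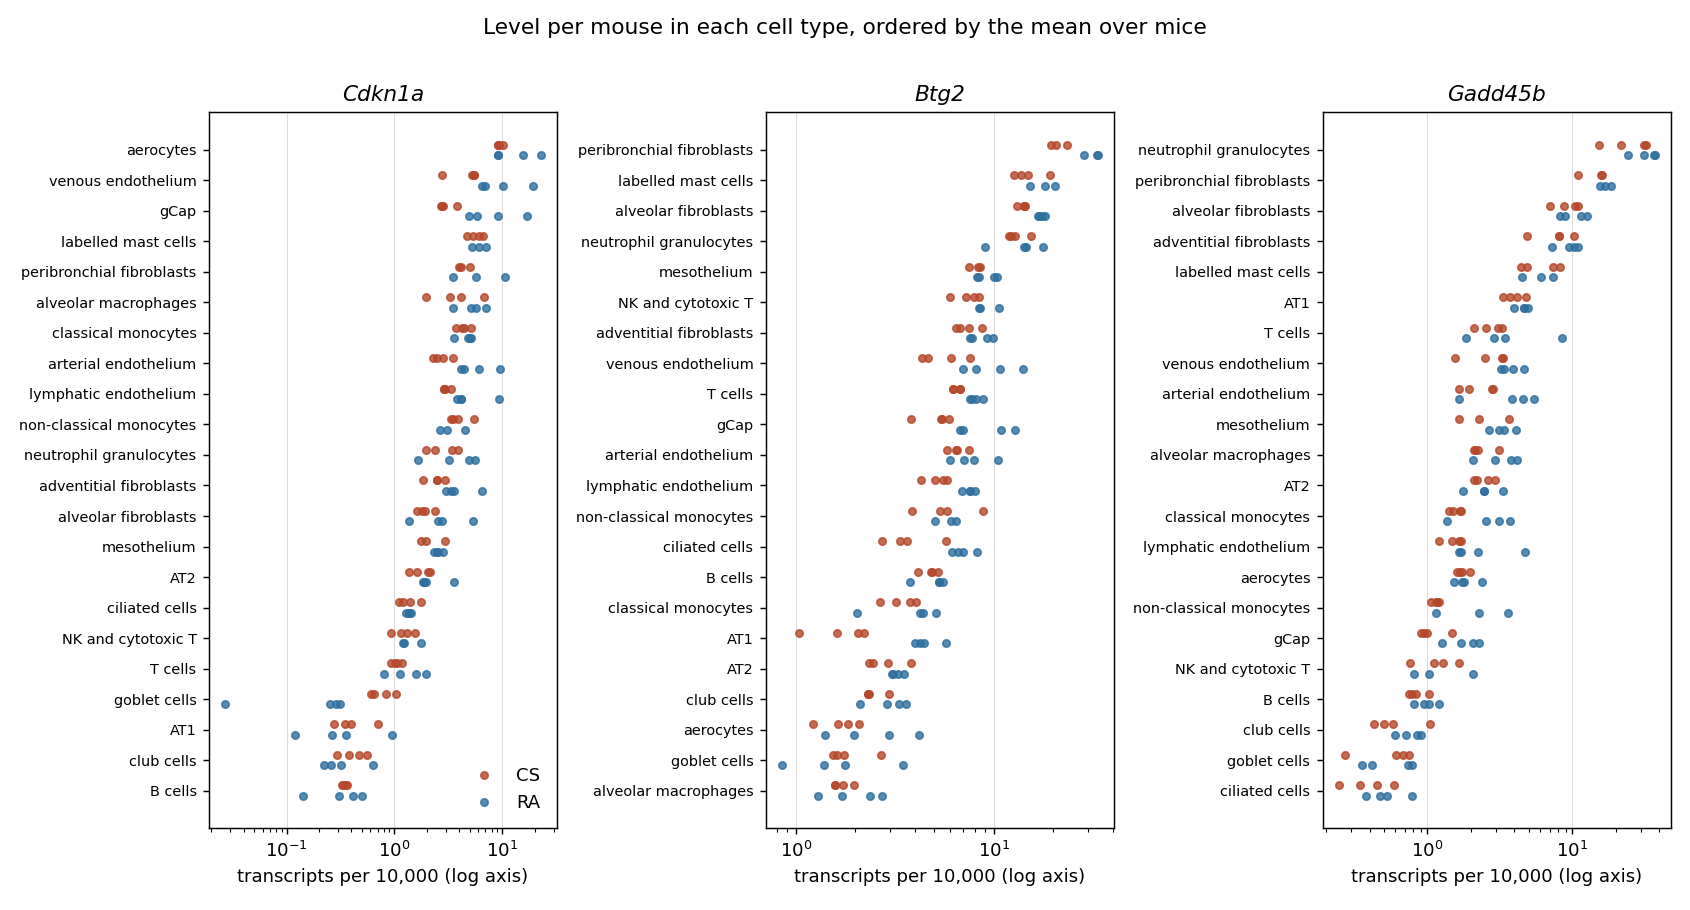
Transcripts per 10,000 (x axis, log scale) of Cdkn1a, Btg2 and Gadd45b in 22 cell types, 1 point per mouse, CS and RA in separate colours, types ordered by the mean over mice. Cdkn1a leads in aerocytes (11.8), Btg2 in peribronchial fibroblasts (26.5) and Gadd45b in neutrophil granulocytes (28.8).

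Over the 22 types, the genes whose level was most like that of Cdkn1a were Ddx3x (Pearson r = 0.83 of log2 values), Atf4 (0.81), Midn (0.80), Klf7 (0.80) and Itm2b (0.80), among 15002 genes ranked. For Gadd45b they were Gm17056 (0.85), Homer1 (0.83), Coq10b (0.83), Lsmem1 (0.82) and Per1 (0.81). Within the set, Gadd45b was most like Btg2 (0.69) and Gadd45a (0.60), and Cdkn1a most like Phlda3 (0.52). Types share mice and libraries, and these values are a description. Over single gCap cells of a mouse, the correlation of Cdkn1a with the stress gene Atf3 lay between 0.37 and 0.58 in the 8 mice. With the other immediate-early genes computed it ran from 0.24 to 0.48 with Fos, 0.19 to 0.45 with Egr1, 0.08 to 0.40 with Ier2, 0.22 to 0.39 with Zfp36 and 0.05 to 0.32 with Jun. With Btg2 it lay between 0.24 and 0.37, with Gadd45b between 0.10 and 0.35 and with Mdm2 between 0.04 and 0.21. All are taken over cells of 1 library whose depths differ.

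A list of 41 other p53 pathway genes included Trp53 itself and Mdm4, so that it is not a list of p53 targets alone. Outside gCap cells, 11 of its 525 tested gene and type pairs were called. Of these, 6 were lower and 5 higher in CS, beside 0.388% and 0.501% of all pairs. At an unadjusted p under 0.05 there were 86, beside 14.4% of all pairs. With no filter on genes 0 were called lower and 0 higher by limma. With the lane as a block 2 were called lower and 3 higher, and without any 1 of the 8 mice the counts ran from 0 to 5 lower and from 1 to 6 higher, with 0 lower without C2, 1 lower without D2, D5 or M3, 2 lower without C5 or F1 and 3 lower without F3. The higher count was 1 without C2, D5 or M3, 2 without C5 or D2 and 3 without F3. Among all genes, 3.08% were called in adventitial fibroblasts, 1.55% in alveolar fibroblasts, 0.128% in venous endothelium, 2.04% in aerocytes and 0.549% in alveolar macrophages. Sertad1, a CDK4-binding regulator, was lower in adventitial fibroblasts, at 1.03 ± 0.0132 against 1.83 ± 0.328 (log2 difference -0.47, adjusted p = 0.0236). It was also lower in alveolar fibroblasts (-0.41, adjusted p = 0.0397). Klf4, a growth-arrest transcription factor, was lower in adventitial fibroblasts (-0.50, adjusted p = 0.0444) and Ddit4, an inhibitor of mTOR, in venous endothelium (-0.44, adjusted p = 0.0323). In aerocytes, Ephx1, the microsomal epoxide hydrolase, was higher, at 1.99 ± 0.309 against 0.926 ± 0.131 (0.63, adjusted p = 0.00676). Polk, a DNA polymerase that copies past lesions, was higher there as well (0.26, adjusted p = 0.0350). The other 5 were singled out after their values were seen. Thbs1, which encodes thrombospondin 1, was higher in alveolar fibroblasts (13.8 ± 1.94 against 7.92 ± 1.56, log2 difference 0.73, adjusted p = 0.0303), and Bax, a promoter of apoptosis, was lower in adventitial fibroblasts (-0.26, adjusted p = 0.0486). Gdf15 was lower in alveolar macrophages (3.69 ± 2.81 against 10.7 ± 2.51, adjusted p = 0.0135), Zmat3 was higher in goblet cells (0.407 ± 0.118 against 0.0895 ± 0.0353, adjusted p = 0.0335) and Eda2r was higher in aerocytes (0.516 ± 0.152 against 0.165 ± 0.0786, adjusted p = 0.0319). The list thus held calls in both directions. Its median difference ran from -0.13 in peribronchial fibroblasts to 0.05 in goblet cells. The median of all genes ran from -0.004 to 0.027 over the types. Of the listed genes tested, 13 of 22 were below 0 in peribronchial fibroblasts and 4 of 36 in goblet cells.

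In gCap cells, again as a description, 5 of 25 listed p53 pathway genes tested were under the threshold as lower and 2 as higher, beside 10.8% of all genes. Means of Sertad1 were 1.63 in CS and 3.21 in RA mice, of Klf4 8.89 and 12.8, of Ddit4 0.423 and 0.846, and of the death receptor Fas 2.29 and 3.27. Those of Pmaip1 were 0.293 in CS and 0.473 in RA mice. The higher ones were Ephx1, at 1.6 in CS and 0.844 in RA, and Polk, at 0.424 and 0.295. Among the listed partners of the Gadd45 proteins, 2 of 6 were under the threshold as higher in gCap cells and none of 106 pairs was called by limma elsewhere, where 20 had an unadjusted p under 0.05, beside 14.4% of all pairs.

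Immediate-early genes were also lower in gCap cells of CS mice, as a description. All 16 listed, among them the heat shock genes Hspa1a and Hspa1b, had a lower mean in CS mice. Their summed level was 66.0 to 100 transcripts per 10,000 in CS mice and 128 to 175 in RA mice, without overlap. Atf3 had means of 4.30 and 10.4, Dusp1 4.92 and 8.12, Ier3 11.4 and 19.7 and Ier5 2.0 and 3.19. In venous endothelium the summed level was 127 to 163 and 184 to 251, also without overlap. It overlapped in arterial endothelium (106 to 127 and 111 to 170), AT1 cells (33.5 to 43.2 and 38.5 to 51.0), ciliated cells (59.1 to 135 and 100 to 147) and goblet cells (23.0 to 54.7 and 12.7 to 52.7). Outside gCap cells 5 of 334 pairs were called, all lower, beside 0.388% of all pairs called lower. They were Fos (log2 difference -0.70, adjusted p = 0.0396) and Ier2 (-0.69, adjusted p = 0.0160) in ciliated cells, where 14 of the 16 were below 0, Egr1 in alveolar macrophages (-1.71, adjusted p = 3.13e-05), Atf3 in adventitial fibroblasts (-0.56, adjusted p = 0.0363) and Dusp1 in AT1 cells (-0.72, adjusted p = 0.0307). Of the 334 pairs, 81 had an unadjusted p under 0.05 by limma, beside 14.4% of all pairs. With the lane as a block 3 pairs were called lower, with no filter on genes 1, and 10 among genes found in at least 25% of cells. Leaving out 1 mouse gave 1 to 10 lower pairs, with 1 without D5, 2 without C2 or M3, 3 without F1, 8 without M1 and 10 without C5, and 1 higher pair without M1. The part of the immediate-early genes in the differences of Cdkn1a, Btg2 and Gadd45b was not tested. Of the 18 CDK inhibitors and G1 genes listed, 3 pairs were called lower and 1 higher of 231 outside gCap cells, beside 0.388% and 0.501% of all pairs. With the lane as a block, and also with no filter on genes, 1 was called lower and 0 higher, and with summed transcripts 3 lower and 3 higher. Without C2, C5, D5 or F3 only 1 was called lower, without F1 or M3 it was 2 lower with 0 higher, and the higher call was also lost without C2, D2, D5 or F3. In gCap cells none of the 10 tested was called by limma, and 3 of these 10 had an unadjusted p under 0.05, beside 35% of all genes. Of the 8 proliferation genes, 9 pairs passed the filter and none was called by limma, with 2 at an unadjusted p under 0.05, beside 14.4% of all pairs. In gCap cells the summed proliferation genes were 0.241 to 1.11 in CS mice and 0.224 to 0.326 in RA mice. Of the 8 genes, 0 had a lower mean in CS mice, and 0 passed the filter in gCap cells. The 5 gCap markers themselves summed to 33.7 to 40.2 in gCap cells of CS mice and 43.1 to 46.5 in those of RA mice, without overlap, and 3 of 5 were lower in CS. Markers of club cells in gCap cells summed to 6.58 to 8.74 in CS mice and 7.93 to 17.9 in RA mice, and those of neutrophils to 0.0435 to 0.126 and 0.0573 to 0.677, and their part in the differences was not tested.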

How the data were processed

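The series holds single-cell RNA libraries (10x Genomics, 3' v3) of 8 mouse lungs, 4 CS and 4 RA. Per the study's methods and the processing notes, the authors aligned reads with STAR 2.7.3a (STARsolo) to GRCm38.p6, filtered cells, removed free RNA with SoupX and named cell types. The deposited matrix is called normalized, but was read as estimated counts of UMIs after SoupX. Its cell totals equal the totals deposited with the cell table and differ between cells, and 1.28% of its values are whole within 1e-06. The percent of mitochondrial reads was deposited per cell by the authors and used in 1 alternative only. Cells labelled multiplet (1025) or cell cycle (7) were left out. No doublet caller was run.

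Each cell was scaled to 10,000 transcripts and averaged per mouse and type. Types with at least 20 cells in at least 2 mice per group were fitted with limma 3.58.1 (R 4.3.3, eBayes with trend) on log2(mean + 1) over genes found in at least 10% of cells of either group. A fold on this scale understates the change of low genes. P-values were adjusted by Benjamini-Hochberg over all genes of the type, with a threshold of 0.05. The fit was tested on simulated data. Differences between types were tested with limma without trend on within-mouse differences, for 5 pairs of types chosen after the calls were seen. The members, gene lists and tests were chosen with earlier results of these data known.

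Named are the 10 genes, each of their pairs called, listed genes called in gCap or in 3 types (at most 10 by number of types), and the 5 genes of most similar level. Ties in the number of types were taken in alphabetical order, which left out Jun, Junb, Jund, Socs3, Map2k6 and Mapk14 in gCap cells. Beyond this rule, calls of Fos, Ier2, Egr1, Thbs1, Bax, Gdf15, Zmat3 and Eda2r and the gCap means of Pmaip1 were also given. For shares at equal depth, values were rounded to whole UMIs and thinned at random. Motifs were searched on both strands. Gene overlaps are from GENCODE M21, while the authors' annotation was M22. Lane pairing is from the labels. Deviations of lane mates from their group means correlated at 0.02, -0.03, -0.27 and 0.39 over genes in gCap cells. Alternatives were another pseudocount, gene filters, lane or labelled sex in the model, other scaling, summed transcripts, another cell minimum, a mitochondrial limit, no trend, and leaving out each mouse. The labelled sex of the CS mice is at odds with their transcripts, and no model used the sex given by transcripts. Totals per mouse are given with the results. Spread between 4 mice sets the precision.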

Additional observations from a re-analysis of the deposited data

Results flagged for a closer look

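Of 28 groups of 4 mice looked at (the 10 genes in gCap cells and the 4 pairs called elsewhere, in CS and in RA), 1 held a mouse far from the other 3. Cdkn1a in gCap cells was 3.78 transcripts per 10,000 in CS mouse C5 and between 2.7 and 2.81 in the other CS mice, a gap of 0.898 of the group's range. Chance flags about 1 in 20 groups, or 1.4 of 28. C5 remained below each RA mouse, the lowest of which was at 4.97. This describes the spread within the CS mice, and the smoke comparison of these values was given no test.

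The smoke effect on Btg2 differed between the alveolar cell types, a pair compared after the call in AT1 cells was seen. The log2 difference in AT1 less that in AT2 cells was -0.90 (standard error 0.123, adjusted p = 0.00727), and 77 of 7887 genes passed. Btg2 was higher in AT1 than in AT2 cells of the same RA mice, by 0.39 on the log2 scale, and lower in CS mice, by a difference of -0.51. Of the 5 pairs of types compared, this was the only one in which Cdkn1a or Btg2 passed.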

How the results depend on the processing

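Of the 4 pairs called, Btg2 in AT1 cells passed under all 18 alternatives, and none of the 4 changed sign. The lower cell minimum could not change these 4 fits, since every mouse had at least 20 cells of each type. The counts of pairs depended on the settings. With no filter on genes, 1 member pair was called lower and 0 higher, and 0 lower and 0 higher p53 pathway pairs. With the lane as a replicate block, 1 member pair was called lower, and 2 lower and 3 higher p53 pathway pairs. The higher member pair, Cdkn1a in goblet cells, was not called (0 pairs) with a pseudocount of 0.1, median-ratio scaling, cells of at most 5% mitochondrial reads or no trend. Summed transcripts gave 3 lower p53 pathway pairs, and the call in goblet cells was lost there too, with an adjusted p of 0.0673. Without each mouse in turn, member pairs ran from 1 to 4 lower and from 0 to 2 higher, and p53 pathway pairs from 0 to 5 lower and from 1 to 6 higher. In gCap cells, the Cdkn1a difference lay between -1.43 and -0.91 without each mouse in turn and that of Gadd45b between -0.54 and -0.36. With a pseudocount of 0.1, Gadd45b was -0.70, Gadd45g -0.67 and Trp53inp1 0.20, and the other gCap differences moved by less than the spread between mice. Except where fewer genes or mice were tested, the cause was not tested. The depth of UMIs limits the genes found in few cells, such as Cdkn2a.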
